A study of Mus musculus with 6 samples.

Results

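The transcription factors Batf, Irf4, Jun, Junb, Fosl2, Egr1, Egr2, Egr3, Nr4a1 and Nr4a3 were examined in induced regulatory T (iTreg) cells lacking miR-31. They were found as the non-control probes whose gene name on the array equals one of these 10 symbols, which gave 13 of the 41174 probes, with 2 probes each for Junb, Fosl2 and Egr3 and 1 probe for each of the other 7 genes. The samples were iTreg cells from 3 miR-31fl/fl CD4Cre (cKO) mice and 3 age-matched control mice that carried the floxed miR-31 alleles without Cre. The mice were 6 weeks old on the C57BL/6 background. Naive splenic CD4+ T cells, sorted as CD25-, Foxp3gfp- and CD62L high, were stimulated for 4 days with plate-bound anti-CD3 at 5 μg/ml and soluble anti-CD28 at 2 μg/ml in TGF-β1 at 5 ng/ml and IL-2 at 40 ng/ml, so that all 6 cultures received the same T-cell receptor (TCR) stimulus. The IL-2 level is that of the labels. The paper's methods instead give IL-2 at 10 ng/ml, and name both spleen and lymph nodes as the source of T cells. By the paper's genotyping, sorted CD4+ T cells of cKO mice carried the deleted miR-31 allele. The cultures were not sorted again before RNA extraction as far as the labels say. Each mouse gave 1 culture and 1 one-colour array, so the spread between arrays includes mouse, culture and hybridization.

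These factors form the early nuclear response to the TCR. AP-1 is a dimer of a JUN and a FOS protein, BATF takes the place of FOS beside a JUN protein and recruits IRF4 to composite DNA elements, and this complex is needed in effector regulatory T cells and in other helper subsets. EGR1, EGR2 and EGR3 are zinc-finger factors, of which EGR1 is switched on through MAP kinase and serum response factor. EGR2 and EGR3 restrain T-cell activation. NR4A1 and NR4A3 are orphan nuclear receptors whose expression follows the strength of TCR signalling, and NR4A factors can promote Foxp3 expression.

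The mature miR-31-5p sequence is printed first because its loss in the cKO cells defines the comparison. It is only a part of the deleted locus, which also holds miR-31-3p, at chr4:88910577-88910599. The 22 bases of mature miR-31-5p lie on the minus strand of mouse chromosome 4, at chr4:88910614-88910635 of GRCm38.p6 in RefSeq, and the capitals mark the seed, bases 2 to 8.
mmu-miR-31-5p: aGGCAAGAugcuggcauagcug
No probe on the array is named for miR-31, so its deletion was not checked on these arrays.

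Signal levels are given as log2 of the processed signal minus the log2 of that array's 75th percentile, so that 0 is the 75th percentile of the array, and a difference of 1 is a 2-fold change. The 75th percentiles lay between 987 and 1148 and between 49.3% and 57.7% of spots were well above background. All 6 T-cell and all 5 iTreg marker genes were tested, and the summed signal of the T-cell markers, in multiples of the 75th percentile, was 171 to 214 in cKO and 153 to 162 in control cultures. The iTreg markers summed to 31.6 to 56.5 in cKO and 49.98 to 55.5 in control cultures, and Foxp3 itself was at 3.16, 3.12 and 2.45 in cKO and at 3.42, 3.42 and 3.76 in control cultures. The 5 iTreg markers did not share a direction, with differences of -0.62 for Foxp3, -0.56 for Il2ra, 0.06 for Ikzf4, 0.85 for Itgae and 0.94 for Ctla4 and adjusted p of 0.192, 0.332, 0.695, 0.269 and 0.135 in limma. Foxp3 was lower and Ctla4 higher in every cKO culture than in any control, beside 20.7% of tested probes lower and 15.9% higher. By flow cytometry the paper reports increased iTreg differentiation from naive cKO cells. That measure counts cells and not RNA of a whole culture, and how it relates to the lower Foxp3 signal here was not tested. The B-cell markers summed to 0.538 to 1.26 in cKO and 0.372 to 0.617 in control cultures, the myeloid markers to 0.262 to 0.347 and 0.234 to 0.404, the NK markers to 0.0703 to 0.0723 and 0.0446 to 0.115, the erythroid markers to 0.462 to 1.00 and 0.1604 to 0.319, and the epithelial markers to 0.468 to 0.649 and 0.349 to 0.433. The CD8 T-cell markers summed to 3.87 to 4.34 in cKO and 4.42 to 5.61 in control cultures. Of these genes, 1 of 4 B-cell, 2 of 6 myeloid, 0 of 3 NK, 1 of 3 erythroid and 2 of 3 epithelial markers were bright enough to be tested, and Emr1, Klrb1c, Alas2 and Krt8 were not well above background on any array. The T-cell, CD8, erythroid and epithelial sums did not overlap between the genotypes, and their part in the values below was not tested. Among single tested probes, 15.9% were higher and 20.7% lower without overlap. T-cell markers differed by 0.38 (Cd3d), 0.74 (Cd3g), 0.43 (Cd28) and 0.66 (Cd4), but by -0.09 (Lck) and -0.28 (Cd3e). Hbb-b1 differed by 2.10. Hba-a1, which was not tested, went the other way, at -5.14, -5.11 and -6.57 in cKO and -4.07, -3.80 and -3.32 in control cultures. cKO replicate 3 stood apart, with the lowest Foxp3 and the lowest array weight in the fit, 0.173. For probes of the 10 factors, the difference without this array is given beside the result where it moved by over 1.5 times. For single genes of the lists below, the difference without it is not given.

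Of the 13 probes, 12 exceeded background clearly on 3 or more of the 6 arrays and were tested, and 0 of the 12 differed between cKO and control at an adjusted p under 0.05 in limma, with Benjamini-Hochberg adjustment over all 22281 tested probes. Over all tested probes, 0.148% were higher and 0.0943% lower at that threshold. At an unadjusted p under 0.05, 4 of the 12 probes were higher in cKO cells (Batf, Fosl2 and both Junb probes) and 1 was lower (Egr2), beside 11.5% of all tested probes higher and 11.4% lower. The same 4 higher probes and 1 lower probe were those whose 3 cKO arrays did not overlap the 3 control arrays, beside 15.9% and 20.7% of all tested probes. With 3 arrays against 3, an exact permutation test cannot give a 2-sided p below 0.10, and each of these 5 probes gave 0.10. The methods' t-test on the same log2 values gave 0 of 12 after adjustment and 4 of 12 before it.

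**Figure D1:**
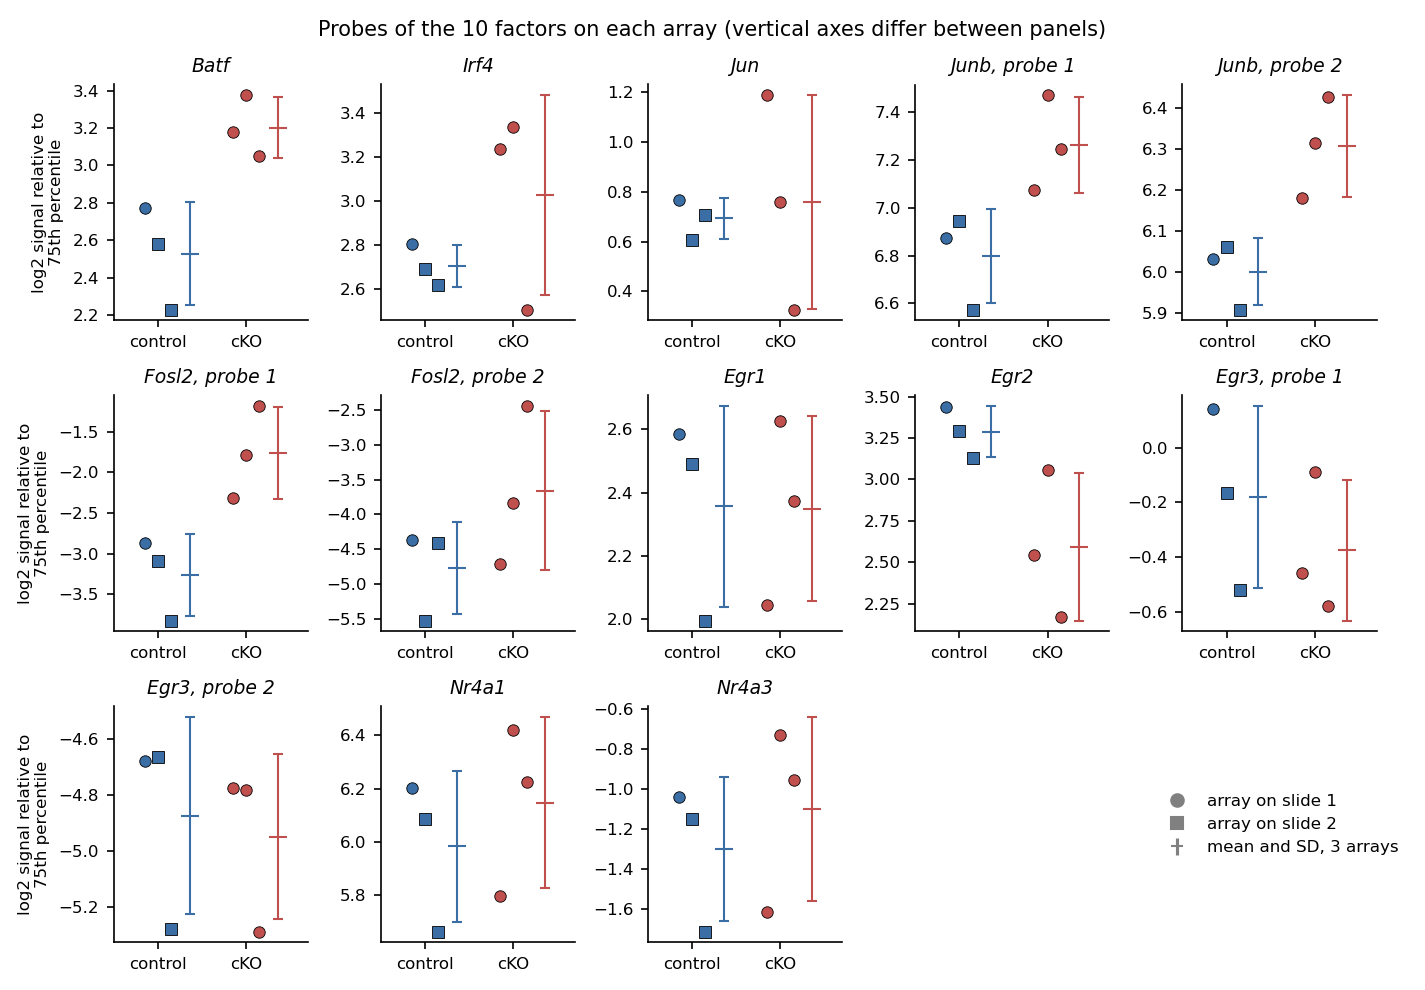
Signal of each of the 13 probes on every array, as log2 relative to the array's 75th percentile (vertical axes, which differ between panels), for control (blue) and cKO (red) cultures, with the mean and SD of 3 arrays. Circles are arrays of slide 1 and squares those of slide 2; Batf, both Junb probes and the first Fosl2 probe lie higher in all 3 cKO cultures, and Egr2 lies lower.

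Batf, the partner that brings JUN proteins and IRF4 together on DNA, was at 3.18, 3.38 and 3.05 in the 3 cKO cultures and at 2.77, 2.58 and 2.23 in the controls. Every cKO value exceeded every control value, with a gap of 0.28 between the groups. The difference was 0.68 ± 0.17 (SE), a 1.60-fold higher mean signal in cKO cells with a 95% interval of 0.25 to 1.10 on the log2 scale, and its adjusted p was 0.135 in limma (n = 3 and 3). The probe lies at mm9 chr12:87049872-87049929 on the plus strand and matches the transcript NM_016767. In bulk RNA, a change in the share of expressing cells and a change in RNA per cell cannot be told apart. This holds for Batf and for every gene below.

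Irf4, the interferon regulatory factor that binds with BATF and whose level follows TCR strength, was at 3.24, 3.34 and 2.51 in cKO and at 2.81, 2.69 and 2.62 in control cultures. In 2 cKO cultures Irf4 was above all controls and in cKO replicate 3 it was below all of them. The difference of 0.32 ± 0.23 (SE) had an interval of -0.24 to 0.89 and an adjusted p of 0.414 in limma (n = 3 and 3). The difference was 0.58 without cKO replicate 3, and 0.22 and 0.17 without cKO replicates 1 and 2.

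Junb, the AP-1 subunit that pairs with BATF in T cells, was measured by 2 probes whose positions on the minus strand of chromosome 8 overlap by 22 bases, so that they are not independent of each other. The brighter one, at mm9 chr8:87500881-87500940, was at 7.07, 7.47 and 7.24 in cKO and at 6.87, 6.95 and 6.57 in control cultures, and the other at 6.18, 6.32 and 6.43 against 6.03, 6.06 and 5.91. Neither probe had overlapping groups. The differences were 0.46 ± 0.16 (SE) and 0.31 ± 0.11 (SE), or 1.38-fold and 1.24-fold, with adjusted p of 0.179 and 0.192 in limma (n = 3 and 3). Across the 6 arrays the 2 probes correlated at r = 0.90.

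Fosl2, which encodes the FOS-family protein FRA2, had the largest difference among the 12 probes, at rank 445 of the 22281 tested probes by absolute size. Its brighter probe, at mm9 chr5:32459624-32459683 and starting at base 5274 of the transcript, was at -2.31, -1.79 and -1.19 in cKO and at -2.87, -3.09 and -3.82 in control cultures, clearly above background on all 6. The groups were 0.55 apart at their closest, and the difference of 1.50 ± 0.36 (SE), with an interval of 0.62 to 2.37, was a 2.82-fold higher signal in cKO cells with an adjusted p of 0.126 in limma (n = 3 and 3). The second probe, starting at base 738 of the same transcript, exceeded background clearly on 2 arrays of cKO and 1 of control cells and read -4.71, -3.83 and -2.44 against -4.37, -5.53 and -4.42. Its groups overlapped, its difference of 1.11 ± 0.62 (SE) had an adjusted p of 0.310 in limma (n = 3 and 3), and without cKO replicate 3 it was 0.50. Across the 6 arrays the 2 Fosl2 probes correlated at r = 0.74.

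Jun, the founding AP-1 subunit, was spotted 10 times on each array, and the spots of 1 array agreed to an SD of 0.17 or less. Its mean was 1.19, 0.76 and 0.33 in cKO and 0.77, 0.61 and 0.71 in control cultures. The cKO cultures spanned 0.86 and the controls 0.16, so that the cKO values lay on both sides of the controls. The difference was 0.06 ± 0.22 (SE), with an interval of -0.47 to 0.60 and an adjusted p of 0.871 in limma (n = 3 and 3). It was 0.28 without cKO replicate 3 and -0.15 without cKO replicate 1.

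Egr2, the factor that with EGR3 induces inhibitors of TCR signalling, was the only one of the 12 probes with all 3 cKO cultures below the controls. It was also spotted 10 times on each array, with spot SDs of 0.05 to 0.08, and its mean was 2.55, 3.06 and 2.17 in cKO and 3.44, 3.30 and 3.13 in control cultures. The groups came within 0.07 of each other, at cKO replicate 2 and control replicate 3. The difference of -0.70 ± 0.24 (SE), with an interval of -1.27 to -0.12, was a 1.62-fold higher mean in controls and had an adjusted p of 0.179 in limma (n = 3 and 3). The probe lies at mm9 chr10:67004758-67004817.

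Egr1, an immediate-early gene of the same family, was at 2.05, 2.63 and 2.37 in cKO and at 2.58, 2.49 and 2.00 in control cultures. The groups covered nearly the same range, and the difference was -0.01 ± 0.22 (SE), with an interval of -0.54 to 0.52 and an adjusted p of 0.986 in limma (n = 3 and 3). It was -0.020 without cKO replicate 3. Egr3, the closest relative of Egr2 in function, was at -0.46, -0.09 and -0.58 in cKO and at 0.14, -0.16 and -0.52 in control cultures at its brighter probe, which overlapped with a difference of -0.19 ± 0.21 (SE) and an adjusted p of 0.586 in limma (n = 3 and 3). With 1 array left out the Egr3 difference ranged from -0.36, without control replicate 3, to -0.033, without control replicate 1, and was -0.092 without cKO replicate 3. The second Egr3 probe, nearer the 5′ end of the transcript at base 278, exceeded background clearly on 1 of the 6 arrays, read between -5.29 and -4.66, and was not tested.

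Nr4a1, also called Nur77 and used as a reporter of TCR signalling, was at 5.80, 6.42 and 6.23 in cKO and at 6.20, 6.08 and 5.66 in control cultures. Nr4a3, a relative with the same DNA-binding preference, was at -1.62, -0.73 and -0.96 in cKO and at -1.04, -1.15 and -1.71 in control cultures. Both genes ordered the 6 cultures alike, with cKO replicate 2 highest and control replicate 3 lowest, and in both the groups overlapped. The differences were 0.16 ± 0.22 (SE), with an interval of -0.36 to 0.69, for Nr4a1 and 0.20 ± 0.29 (SE), with an interval of -0.49 to 0.89, for Nr4a3, with adjusted p of 0.653 and 0.676 in limma (n = 3 and 3). Without cKO replicate 3 they were 0.13 for both genes. Without control replicate 3 they were 0.0043 and -0.0058, without cKO replicate 2 they were 0.028 and 0.016, and without cKO replicate 1 they were 0.34 and 0.46. The Nr4a3 probe maps to mm9 chr4:48080690-48083876, a span of 3187 bases for a 60-base probe, so it crosses an intron and reads spliced RNA.

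**Figure D2:**
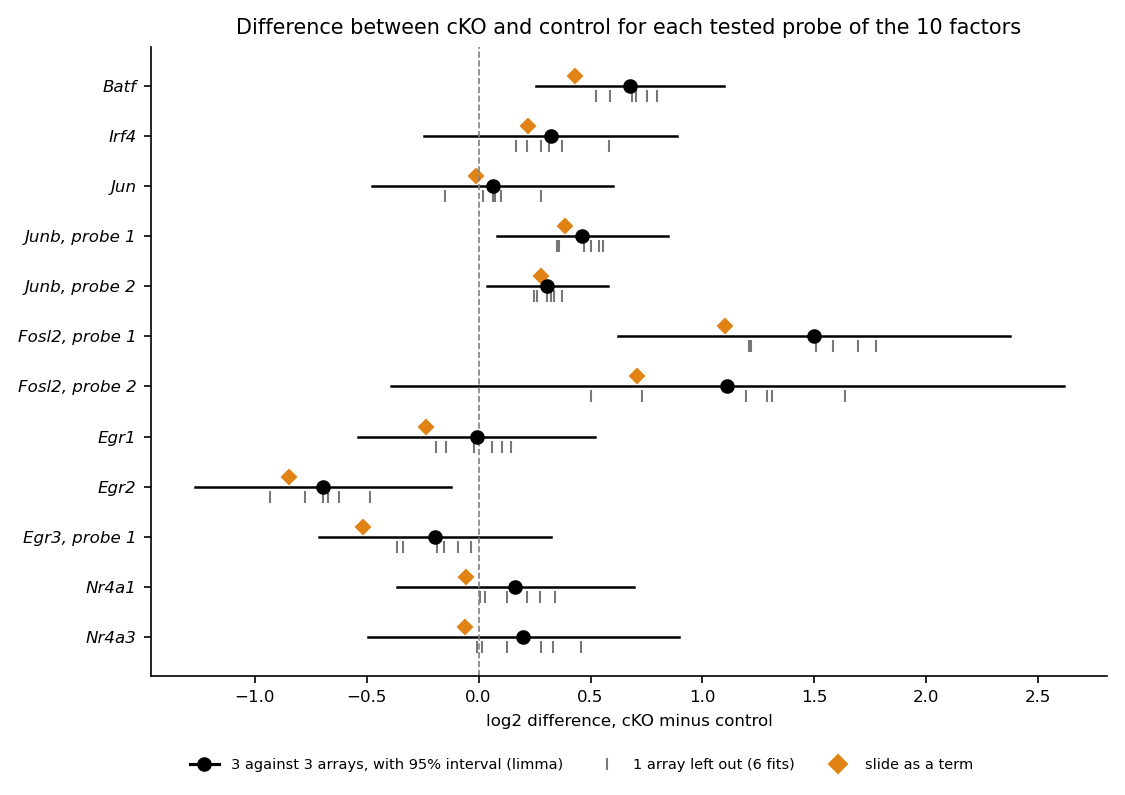
Difference between cKO and control in log2 signal (horizontal axis) for the 12 tested probes, as the limma estimate with its 95% interval (black), the estimates with 1 array left out (grey ticks) and the estimate with slide as a term (orange). The intervals of Batf, both Junb probes, the first Fosl2 probe and Egr2 leave out 0, and none of the 12 had an adjusted p under 0.05.

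The arrays lay on 2 slides, with all 3 cKO arrays and control replicate 1 on slide 1 and control replicates 2 and 3 on slide 2, so that slide and genotype are partly confounded. Within slide 1, where the 3 cKO arrays meet 1 control array, the differences were 0.43 for Batf, 0.22 for Irf4, 0.39 and 0.28 for the Junb probes, 1.10 and 0.71 for the Fosl2 probes, and -0.85 for Egr2. Each of these kept the sign of its estimate from all 6 arrays. Within slide 1 the differences were -0.01 for Jun, -0.24 for Egr1, -0.52 for Egr3, -0.05 for Nr4a1 and -0.06 for Nr4a3, so that Jun, Nr4a1 and Nr4a3 turned negative. A fit with slide as a term gave these same values, because only slide 1 holds both genotypes, and 0 of the 12 probes passed an adjusted p of 0.05 or an unadjusted p of 0.05 in limma. Another background correction, normexp with the 75th percentile, gave 0.43 for Batf, 0.09 for Irf4, and 0.17 and -0.0032 for the Junb probes. Normexp with quantile normalization gave 0.92 and 0.44 for the Fosl2 probes, and array weights gave -0.43 for Egr2.

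The factors followed each other across the 6 cultures to different degrees. Of the 45 pairs among the brightest probes of the 10 genes, 36 had a positive Pearson r over the 6 arrays and 4 had r over 0.9. These were Nr4a1 with Nr4a3 (r = 0.996), Egr1 with Nr4a1 (r = 0.934), Egr1 with Nr4a3 (r = 0.932) and Batf with Junb (r = 0.928). After each genotype's mean was removed, the first 3 pairs were at 0.997, 0.989 and 0.977 and Batf with Junb at 0.759. Close likeness was then not particular to these pairs. Batf with Egr3 was at 0.983 (0.113 over the 6 arrays), and Junb was at 0.964 with Egr1, 0.940 with Nr4a1 and 0.935 with Nr4a3. Other pairs went the other way, such as Jun with Fosl2 at -0.725 (-0.252 over the 6 arrays). Egr2 stood at r = 0.033 with Nr4a1 and 0.354 with Egr1 over the 6 arrays, and at 0.483 and 0.555 after the genotype means were removed. Over the 6 arrays Jun was at r under 0 with 5 of the other 9 genes. These correlations describe 6 arrays, whose points share the same RNA, labelling and scaling, and carry no test. The same counts over pairs of other tested genes were not computed, so they cannot be read as particular to these factors.

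**Figure D3:**
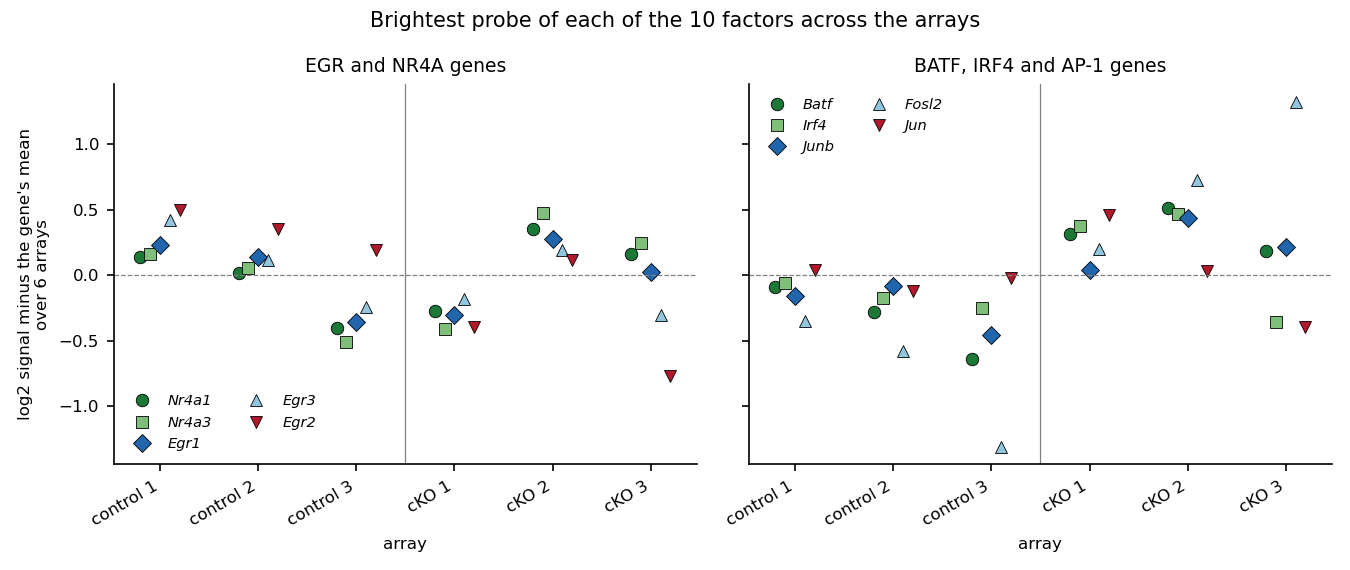
Brightest probe of each gene on each array, as log2 signal minus the gene's mean over the 6 arrays (vertical axis), with control arrays left and cKO arrays right of the line. Nr4a1, Nr4a3 and Egr1 move together from array to array, Egr2 is above its mean in all 3 controls, and Irf4 and Jun drop in cKO replicate 3.

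The promoters of Nr4a1 and Nr4a3 are shown because these genes moved together, and that of Egr2 because it was the factor with lower values in cKO cells. Each line gives the 250 bases before an annotated start from RefSeq (GRCm38.p6, plus strand), and capitals mark TGACG, the core of the cAMP response element, on either strand, and in Egr2 also the CArG box, the site of serum response factor. The windows are chr15:101266596-101266845 for Nr4a1, chr4:48045055-48045304 for Nr4a3 and chr10:67537680-67537929 for Egr2.
Nr4a1: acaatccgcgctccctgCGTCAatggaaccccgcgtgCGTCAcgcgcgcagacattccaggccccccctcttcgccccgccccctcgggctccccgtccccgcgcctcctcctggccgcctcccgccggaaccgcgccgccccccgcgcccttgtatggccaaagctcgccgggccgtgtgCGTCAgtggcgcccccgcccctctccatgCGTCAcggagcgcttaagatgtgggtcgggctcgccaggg
Nr4a3: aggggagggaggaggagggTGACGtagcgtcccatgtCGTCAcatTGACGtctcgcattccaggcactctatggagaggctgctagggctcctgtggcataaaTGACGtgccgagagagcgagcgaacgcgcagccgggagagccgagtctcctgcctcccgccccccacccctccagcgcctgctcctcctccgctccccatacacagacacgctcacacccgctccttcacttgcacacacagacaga
Egr2: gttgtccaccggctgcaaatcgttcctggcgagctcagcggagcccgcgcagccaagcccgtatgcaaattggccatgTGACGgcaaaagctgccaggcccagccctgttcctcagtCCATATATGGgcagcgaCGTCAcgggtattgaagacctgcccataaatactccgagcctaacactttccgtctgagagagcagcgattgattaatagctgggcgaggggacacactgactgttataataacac
Nr4a1 and Nr4a3 each held 4 TGACG matches, a number reached by 0.137% of the 32851 promoter windows, while 17.8% held at least 1. The Egr2 window held 2 of them and 1 CArG box, which 1.47% of windows hold. Egr2 has 5 annotated starts, of which 3 with overlapping windows shared these matches, 1 held a CArG box alone and 1 held neither. Batf and Junb held 1 TGACG match each, and Jun, Fosl2 and Irf4 held none. The full element TGACGTCA, which holds the core on both strands (1.55% of windows), the AP-1 element TGANTCA (6.75%) and the NR4A element AAAGGTCA (1.34%) were not found in any of the 12 windows of these 8 genes. Egr1 and Egr3 have no entry. A match in these letters is no evidence of binding. Nr4a1 and Nr4a3 were chosen for their values and several elements were searched, so these shares carry no test. Whether the matches bear on the likeness of both genes was not tested.

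The genes around these factors were read from 9 lists of 103 genes, of which 97 were tested, each by its brightest tested probe. In limma, 0 of the 97 had an adjusted p under 0.05, and at an unadjusted p under 0.05 there were 17 higher and 10 lower, beside 12% and 11.5% of all 14357 tested genes. The median difference was 0.18 over the 10 factors and 0.05 over the lists together, beside -0.05 over all tested genes.

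Among the other bZIP factors, 12 of 16 had a positive estimate, beside 6458 of all 14357 tested genes. The median of the list was 0.20, and 4 were higher and 3 lower at an unadjusted p under 0.05. The median was 0.064 within slide 1 and 0.098 with normexp at the 75th percentile. Nfil3, a repressor induced by cytokines, was at 2.44, 2.64 and 2.63 in cKO and at 2.15, 2.00 and 1.78 in control cultures, a difference of 0.60 ± 0.13 (SE) with an adjusted p of 0.120 in limma. Batf2, a BATF relative known from myeloid cells, was at -4.31, -3.61 and -4.97 in cKO and at -2.88, -2.55 and -3.02 in control cultures, 1.48 lower with an adjusted p of 0.122 in limma, and exceeded background clearly in 2 of the 3 cKO cultures, so the size of its difference rests partly on a value at background. Neither gene had overlapping groups, beside 2386 genes higher and 3069 lower without overlap among all 14357 tested. The other IRF factors had a median of 0.02, with 1 of 8 higher and 1 lower at an unadjusted p under 0.05. Without cKO replicate 3 their median was -0.027. Irf7, the factor of interferon induction, was at -2.49, -1.93 and -2.21 in cKO and at -1.07, -1.30 and -1.51 in control cultures, a difference of -0.91 ± 0.19 (SE) with an adjusted p of 0.107 in limma.

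The relatives and partners of the EGR and NR4A factors had a median of -0.07, with 0 of 9 higher and 2 lower at an unadjusted p under 0.05. Egr4, another EGR protein, was at -3.48, -2.50 and -3.78 in cKO and at -1.48, -1.66 and -2.26 in control cultures, a difference of -1.45 ± 0.38 (SE) with an adjusted p of 0.137 in limma. It had the sign of Egr2, and its groups did not overlap. Nr4a2, the third NR4A receptor, differed by 0.26 ± 0.19 (SE), with an adjusted p of 0.420 in limma.

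Upstream of the factors, the 10 genes of the NFAT and calcineurin route had a median of -0.03, and of 0.0029 without cKO replicate 3. Of these genes, 0 reached an unadjusted p of 0.05 in limma. Ppp3ca, a catalytic subunit of calcineurin, was at 0.28 ± 0.21 (SE) and Nfatc1 at -0.23 ± 0.15 (SE), with adjusted p of 0.434 and 0.368 in limma. The 14 genes of the MAP kinase route had a median of -0.03, with 2 higher and 1 lower at an unadjusted p under 0.05. Mapk3, which encodes ERK1, differed by 0.45 ± 0.11 (SE) with an adjusted p of 0.130 in limma, and Mapk8, which encodes JNK1, by -0.45 ± 0.15 (SE) with an adjusted p of 0.179 in limma, although the 4 Mapk8 probes ranged from -0.45 to -0.04. The feedback inhibitors of the route had a median of 0.01, with 0 of 8 higher and 1 lower. Spry1, an inhibitor of RAS signalling, was at 2.39, 3.06 and 2.40 in cKO and at 3.39, 3.42 and 3.43 in control cultures, 0.80 lower with an adjusted p of 0.132 in limma, and Dusp4, a MAP kinase phosphatase, differed by 0.32 ± 0.15 (SE), adjusted p of 0.244.

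Other early activation genes had a median of 0.23, with 3 of 13 higher and 1 lower at an unadjusted p under 0.05. The median was 0.11 within slide 1, 0.058 without cKO replicate 2, 0.14 without control replicate 3 and 0.36 without cKO replicate 1, and it turned negative, at -0.068, with normexp at the 75th percentile. Ier3, an immediate-early survival gene, was at 0.54, 1.00 and 0.86 in cKO and at -0.39, -0.11 and -0.48 in control cultures, a 2.19-fold difference with the smallest adjusted p of the 97 list genes, 0.0685 in limma. Ier5 differed by -0.51 ± 0.16 (SE), with an adjusted p of 0.163 in limma.

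Downstream, the genes that depend on BATF and IRF4 had a median of 0.94, with 3 of 7 tested genes higher and 0 lower at an unadjusted p under 0.05. The median was 0.47 with normexp and quantile normalization, 0.55 within slide 1, 0.55 without control replicate 3 and 0.62 without cKO replicate 1. Prdm1, which encodes the effector regulator BLIMP1, was at -1.05, -1.56 and -0.60 in cKO and at -2.21, -2.62 and -3.58 in control cultures, a 3.32-fold difference with an adjusted p of 0.122 in limma. The genes that depend on EGR2 and EGR3 had a median of 0.49, with 4 of 12 higher and 1 lower at that threshold, and of 0.27 within slide 1. Rnf128, which encodes the ubiquitin ligase GRAIL, differed by 2.42 ± 0.69 (SE) and exceeded background clearly in 3 cKO and 2 control cultures, and Crtam, a cell adhesion receptor, by -1.39 ± 0.50 (SE), with adjusted p of 0.151 and 0.191 in limma. Crtam and Egr2 were lower and Rnf128 higher in each cKO culture than in any control. Within slide 1, Prdm1 differed by 1.14, Rnf128 by 2.32, Crtam by -1.73, Dusp4 by 0.12 and Ppp3ca by 0.67.

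**Figure D4:**
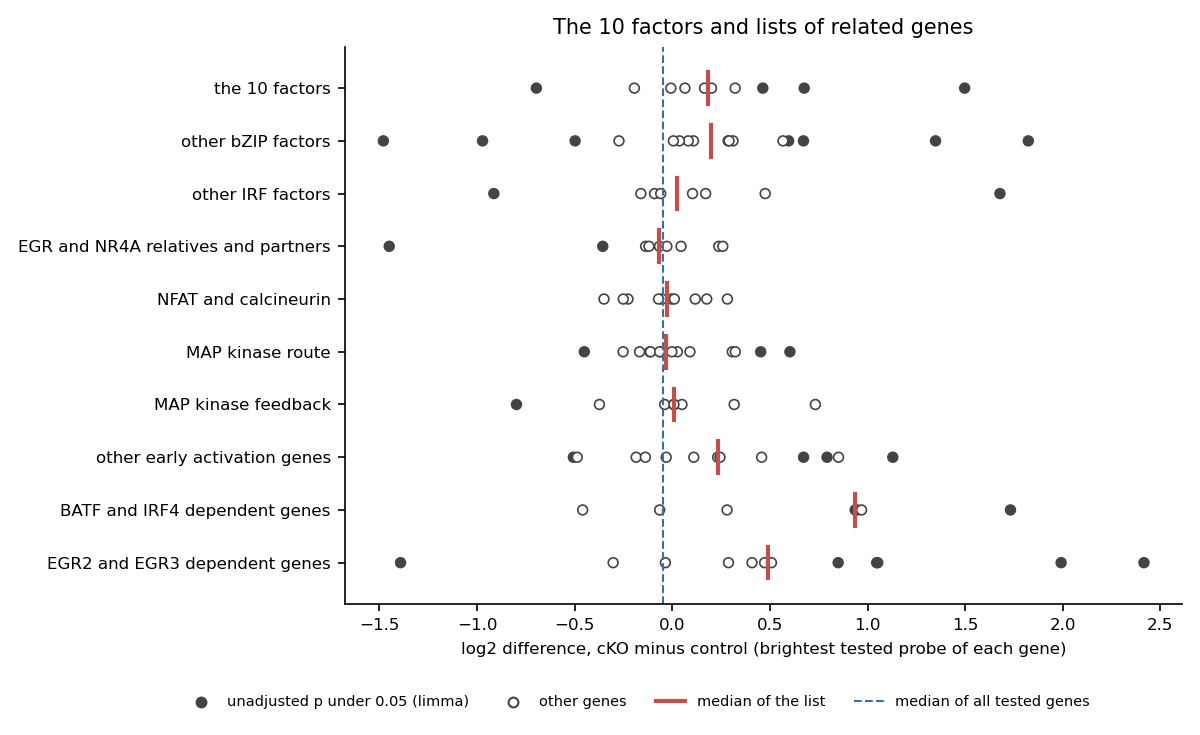
Difference between cKO and control in log2 signal (horizontal axis) for the brightest tested probe of each gene in the 10 factors and 9 lists of related genes, filled where the unadjusted limma p was under 0.05. Red bars are the list medians, from -0.07 to 0.94, and the dashed line is the median of all tested genes, -0.05.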

How the data were processed

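Cy3-labelled RNA of 6 iTreg cultures was hybridized to 6 Agilent mouse arrays, 1 colour each. The authors scanned the arrays and extracted the spots with Agilent Feature Extraction (9.1 per the labels, 10.7.3.1 per the file headers). The deposited spot intensities are linear and background-subtracted, and not normalized between arrays, and the authors also deposited a table of log2 values whose normalization is not given in the sources used here; its columns have medians of 6.15 and correlate with the scanner signal at r of 0.998 or higher. All columns were assigned to a sample.

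Processed intensities were put on the log2 scale and centred on the 75th percentile of their array. Between 123 and 140 outlier spots per array were dropped, and spots of a probe were averaged. The 22281 of 41174 probes that exceeded background clearly, by the software's own call, on 3 or more arrays were tested with limma 3.58.1 in R 4.3.3, with Benjamini-Hochberg adjustment. Exact permutation tests used scipy 1.17.1, tables pandas 2.3.3 and numpy 2.4.6 in Python 3.11.15, robust fits statmod 1.5.0, and figures matplotlib 3.10.9. Of the 13 probes, 12 have an accession in the RefSeq table, all with the array's symbol. Probe positions are the array's mm9 annotation, promoters and miR-31 are from RefSeq on GRCm38.p6. Exon and UTR annotation were not used here.

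The steps were tested on simulated data. The factors and lists were chosen with earlier results of these data known. From each list the text names the gene with the lowest p among those higher and among those lower, by brightest tested probe. Some genes that this rule names are not reported here. Alternatives were other background corrections and scalings, the table of log2 values, filters on dim probes, the methods' t-test, moderated variance settings, array weights, slide, a replicate block, leaving out each array, and the mean over a gene's probes. The number of arrays limits the precision.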

Additional observations from a re-analysis of the deposited data

How the results depend on the processing

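Among the 12 tested probes of the 10 factors, 0 passed an adjusted p of 0.05 under every alternative except array weights, which gave 3 (Batf 0.72, Irf4 0.55 and the first Fosl2 probe 1.25, all higher, adjusted p 0.0386, 0.0484 and 0.0412 in limma) beside 2205 of all tested probes, 1216 higher and 989 lower. Array weights also gave 10 of the 97 list genes, and normexp with quantile normalization and the filter on all 6 arrays gave 1 each. The count over all tested probes was 54, and 112 with normexp and quantile normalization, 26 with quantile normalization, 28 with the deposited table, 174 with a background filter on every array, 105 with trended and robust variances, 0 to 1 without 1 array, and 0 under normexp at the 75th percentile, with no dim-probe filter, with the methods' t-test on log2 values, with slide as a term or within slide 1. At an unadjusted p under 0.05 the count was 5120, and from 1310 to 7566 over the alternatives. Batf, Irf4, the first Junb probe, both Fosl2 probes, Egr2 and Egr3 kept their sign under every alternative run. The second Junb probe was -0.0032 with normexp and the 75th percentile, a scaling that moved the median of all probes from -0.04 to 0.11, and Nr4a1 was -0.073 there. With slide as a term and within slide 1, Jun was -0.0092, Nr4a1 -0.055 and Nr4a3 -0.060. Egr1 was 0.038 with normexp and quantile normalization, 0.024 with quantile normalization, 0.025 with the deposited table and 0.020 with array weights. Leaving out 1 array, Jun ranged from -0.15 to 0.28, Egr1 from -0.19 to 0.14 and Nr4a3 from -0.0058 to 0.46. The median of the MAP kinase route was -0.0058 with normexp and quantile normalization, -0.17 with normexp and the 75th percentile, -0.0082 with quantile normalization, -0.00046 with the deposited table, 0.0064 with array weights, -0.015 over all probes of a gene and -0.061 to 0.0027 without 1 array. The median of the other IRF factors was -0.18 with normexp and the 75th percentile. That of the genes dependent on BATF and IRF4 was 0.47 with normexp and quantile normalization, 0.55 with slide as a term or within slide 1 and 0.55 to 0.91 without 1 array. The causes were not tested.

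Deviations of same-numbered arrays correlated at -0.14, 0.01 and -0.19. These values cannot decide whether the replicate numbers pair mice or cultures, because some same-numbered arrays lay on different slides. With the replicate block, 0 of all tested probes, 0 of the 12 probes of the factors and 0 of the list genes passed an adjusted p of 0.05 (3627, 4 and 25 at an unadjusted p under 0.05), and it changed no call among the factors or lists.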
